A study of Mus musculus with 12 samples.

Results

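The genes described here encode the proteins of the mitochondrial ribosome, the particle that translates the messages of the mitochondrial genome. They were all genes of the count table whose symbol begins with Mrpl or Mrps followed by a number, without the pseudogene Mrpl23.ps1. This rule, which used no measured value, found 78 of 33246 genes, 49 named Mrpl after the large subunit and 29 named Mrps after the small subunit. Primary fibroblasts from the ears of 1-month-old C57BL/6 mice of both sexes were expanded in serum-containing medium, used at passage 2, and seeded on alginate gels carrying the RGD adhesion peptide, from which polyadenylated RNA was sequenced after 48 h. The 4 groups of 3 samples were 2 kPa Elastic, 20 kPa Elastic, 2 kPa Viscoelastic and 20 kPa Viscoelastic. The methods also name Tau-EGFP reporter mice as a source of cells, and the labels do not say which mice gave which sample. Elastic gels were crosslinked covalently and viscoelastic gels ionically, with slow stress relaxation, so that the kind of crosslink and the relaxation cannot be told apart. Per the methods, stiffer gels of either kind were made with more crosslinker, which was calcium sulfate in the viscoelastic gels. Stiffness and the amount of crosslinker therefore cannot be told apart either. The study calls the replicates biological, and the labels do not tie them to separate animals; if they share a pool of cells, the p-values measure only the spread between these cultures.

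The mitochondrial ribosome makes a handful of membrane proteins that are core parts of the respiratory chain and the ATP synthase. Its own proteins are all encoded in the nucleus, translated in the cytosol and imported. Some descend from the bacterial ribosome and others exist only in mitochondria, and they are built around ribosomal RNA into a small subunit, which reads the message, and a large subunit, which joins amino acids and releases the chain towards the inner membrane. Fibroblasts rely on this machinery to maintain respiration, and its genes are transcribed in nearly every cell type from compact promoters that often hold binding motifs for NRF1, for ETS factors such as GABPA, and for YY1.

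Those promoters are shown for 5 genes, chosen for their response or for the motif letters they hold. The sequences are the RefSeq strand of each gene upstream of its start, from GRCm38.p6 and free of exons in the GENCODE M21 annotation, with motif letters in capitals. Mrpl52 and Mrps18a were the only members called for a different response to viscoelasticity at the 2 stiffnesses, Mrpl22 carries NRF1 and ETS letters together, Mrpl9 carries NRF1 letters, and Mrpl41, among the 6 strongest calls averaged over stiffness, carries none of the motifs searched.
Mrpl52, chr14:54426789-54426908, plus strand: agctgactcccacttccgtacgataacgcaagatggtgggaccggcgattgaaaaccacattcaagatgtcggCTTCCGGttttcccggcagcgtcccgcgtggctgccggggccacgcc
Mrps18a, chr17:46110894-46110985, plus strand: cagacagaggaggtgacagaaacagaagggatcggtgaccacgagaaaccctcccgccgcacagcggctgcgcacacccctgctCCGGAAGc
Mrpl22, chr11:58171554-58171659, plus strand: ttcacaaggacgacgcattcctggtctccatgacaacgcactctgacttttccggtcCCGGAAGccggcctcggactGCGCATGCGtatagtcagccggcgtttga
Mrpl9, chr3:94443226-94443317, plus strand: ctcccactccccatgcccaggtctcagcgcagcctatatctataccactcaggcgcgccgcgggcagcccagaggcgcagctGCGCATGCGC
Mrpl41, chr2:24975099-24975218, minus strand: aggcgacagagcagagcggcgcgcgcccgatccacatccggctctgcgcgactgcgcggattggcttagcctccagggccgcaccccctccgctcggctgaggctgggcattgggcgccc

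Windows from 250 bases before to 50 bases after the start were searched on both strands for 4 fixed words. RefSeq gave such windows for 69 of the 78 genes, 75 windows in all. The ETS word CCGGAAG stood in 34.7% of the members' windows, against 16.1% of the windows of all tested genes and 8.86% of all windows. The NRF1 word GCGCATGCG stood in 9.33% of the members' windows and 3.32% of those of tested genes, and the YY1 word AAGATGGCG in 10.7% and 2.70%. The E-box CACGTG was no more frequent among members (9.33%) than among tested genes (9.52%). At least 1 of the first 3 words stood in 48% of the members' windows, against 20.7% of those of tested genes. By gene, it was found for 36 of 69 members. Among them were 24 of the 37 with a window that were called higher on viscoelastic gels averaged over stiffness and 11 of the other 31 tested. These counts were 18 and 7 for the ETS word, 5 and 2 for NRF1, and 4 and 4 for YY1. The matching counts over all tested genes, called and not called, were not made, and a link between words and response was not tested. The first 3 words can share letters where they adjoin. These matches describe the letters in a window and do not show that a factor binds there.

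Libraries held between 36626221 and 43612804 counts. All 8 fibroblast markers were expressed, at 23436 to 28972 CPM (normalised counts scaled to a common library size) summed per sample. At 20 kPa, Dcn (log2 fold change 0.75, edgeR adjusted p = 0.0017), Lum (0.70, edgeR adjusted p = 0.0014), Col3a1 (0.26, edgeR adjusted p = 0.042) and Vim (0.24, edgeR adjusted p = 0.030) were called higher on viscoelastic gels. Thy1 was called lower (-0.53, edgeR adjusted p = 0.00084), and Col1a1, Col1a2 and Pdgfra were not called. The cartilage genes Col2a1 and Acan were expressed as well, at a sum of 3359 to 4779 CPM, with 3705 to 4779 in the 2 kPa Elastic, 3359 to 3516 in the 20 kPa Elastic, 3530 to 4481 in the 2 kPa Viscoelastic and 3406 to 4621 in the 20 kPa Viscoelastic samples; both are defining markers of chondrocytes and neither was at 0. Acan alone averaged 1456 CPM on 2 kPa Elastic gels and 1020 to 1053 CPM in the other groups, with a log2 fold change of viscoelastic over elastic gels of -0.47 at 2 kPa (edgeR adjusted p = 0.0085), -0.01 at 20 kPa and -0.24 averaged (edgeR adjusted p = 0.023). Col2a1 did not share this fall. Its log2 fold change was 0.01 at 2 kPa, 0.32 at 20 kPa (edgeR adjusted p = 0.065) and 0.165 averaged (edgeR adjusted p = 0.16), none of them called. The part of these cells in the results was not tested. Markers of keratinocytes, endothelium, immune cells, melanocytes, Schwann cells and muscle each summed to at most 7.09 CPM in every sample. Since CPM are shares of a bulk sample, fewer cells of a type and less RNA per cell cannot be told apart.

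Expression differed widely between members. Of the 78 genes, 77 passed the filter on low counts, and the median member had 20.4 CPM. Per kilobase of summed exons, the highest members were Mrps21, a small-subunit protein with a bacterial counterpart, at 32.4 CPM per kilobase, Mrpl54 at 27.3 and Mrps6 at 25.1. The lowest tested members were Mrpl23, a protein of the peptide exit region, at 0.406 CPM per kilobase and Mrps34 at 1.20. Both values are uncertain, because Mrpl23 has an annotated processed pseudogene and 63.4% of the exon bases of Mrps34 lie opposite Mapk8ip3. The gene that was not tested, Mrpl53, held 0 to 5 counts per sample, and 88.0% of its exon bases are shared with Gm42688 on the same strand. Exons of 33 of the 78 members overlapped another gene, 9 of them over at least 20% of their length, and the strand setting of the counting is not given in the sources used here.

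As a whole, the genes were highest on 20 kPa Viscoelastic gels. Their summed expression was 1518, 1475 and 1497 CPM in the 2 kPa Elastic samples, 1600, 1548 and 1573 in the 20 kPa Elastic samples, 1589, 1564 and 1613 in the 2 kPa Viscoelastic samples, and 1803, 1716 and 1827 in the 20 kPa Viscoelastic samples. The 20 kPa Viscoelastic samples stood above all others and the 2 kPa Elastic samples below all others, while the 2 groups in between overlapped. The group means were 1497 ± 21.0, 1574 ± 26.2, 1589 ± 24.2 and 1782 ± 58.4 CPM (SD, n = 3) in the same order. Per gene, 68 of 77 members (88.3%) had their highest group mean on 20 kPa Viscoelastic gels, against 29% of all tested genes, and 51 (66.2%) had their lowest on 2 kPa Elastic gels, against 24.4%. In 40 members all 3 samples on 20 kPa Viscoelastic gels exceeded each of the other 9 samples, an arrangement shown by 7.33% of all tested genes. In 9 members all 3 samples on 2 kPa Elastic gels lay below each of the others, against a background of 4.52%.

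**Figure D1:**
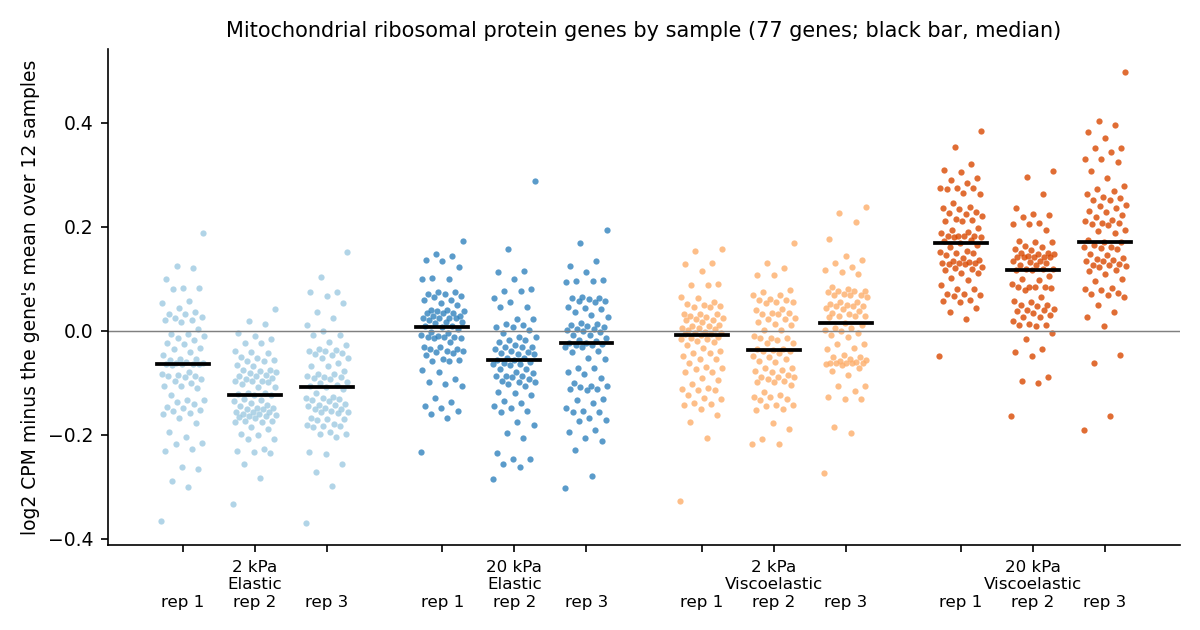
Each point is 1 of 77 mitochondrial ribosomal protein genes in 1 sample, plotted as log2 CPM minus that gene's mean over the 12 samples, with samples on the x axis by group and a black bar at the median. The medians of the 20 kPa Viscoelastic samples lie between 0.12 and 0.17, above those of every other sample (-0.12 to 0.02).

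The first comparison asked how a gel that relaxes stress differs from an elastic gel at the same stiffness. At 20 kPa, 38 of 77 members were higher on viscoelastic gels and 1 was lower (edgeR quasi-likelihood test, adjusted p under 0.05), against 17.4% of all tested genes called higher and 16.1% called lower. The members' median log2 fold change was 0.18, with 69 above 0, beside 0.02 over all tested genes. It corresponds to a rise of 13.0%, so the shift was broad and small. The groups did not overlap, with viscoelastic higher, in 51 members, against 26.2% of all genes. At 2 kPa the same contrast called 7 members higher and 0 lower, 9.09% of members beside backgrounds of 8.77% higher and 11.1% lower, with a median of 0.08 (62 above 0; all genes 0.00). At an unadjusted p under 0.05, 19 of 77 members were counted at 2 kPa in either direction, beside 4968 of 14542 tested genes. DESeq2 called 8 members higher and 0 lower. The 2 kPa Elastic and 2 kPa Viscoelastic samples did not overlap, with viscoelastic higher, in 24 members, against 16.6% of all genes. Averaged over both stiffnesses, 41 members were higher and 1 lower, beside 19.6% and 20.4% of all genes, with a median of 0.13.

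**Figure D2:**
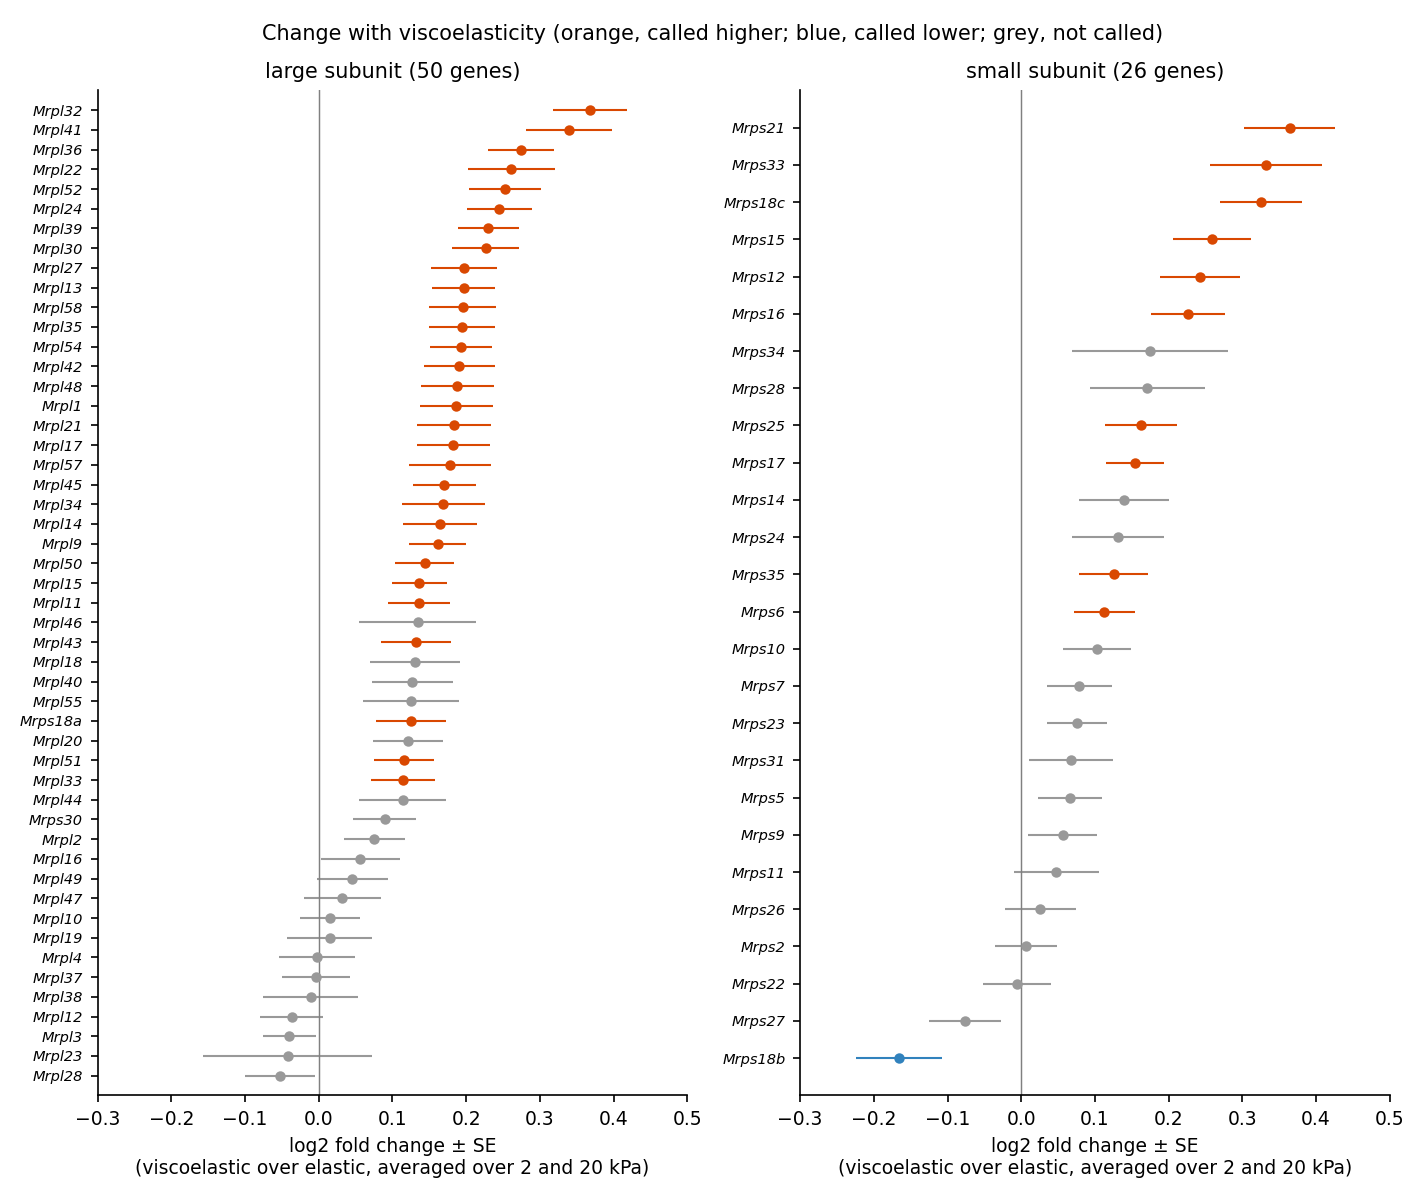
Points give the log2 fold change of viscoelastic over elastic gels averaged over 2 and 20 kPa on the x axis for each gene on the y axis, with bars of 1 standard error, for the large subunit (50 genes, left) and the small subunit (26 genes, right). Orange marks genes called higher, blue the only gene called lower (Mrps18b) and grey genes not called; calls run through both subunits, 30 in the large and 10 in the small.

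Scaling by total counts alone moved the whole table towards higher calls on viscoelastic gels. With that scaling 11.5% of all genes were called higher and 8.65% lower at 2 kPa, 20.2% and 13.1% at 20 kPa, and 24.3% and 15.9% averaged over stiffness. The members' calls then rose to 15 at 2 kPa, 41 at 20 kPa and 49 averaged, with 0 lower.

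Mrpl32 had the lowest adjusted p at 20 kPa and averaged over stiffness. It encodes a large-subunit protein with a bacterial counterpart, which is cut to its mature form inside mitochondria before the ribosome is assembled, and it lies on chr13:14608184-14613165 (GRCm38, minus strand). Its expression was 19.0, 19.1 and 20.4 CPM on 2 kPa Elastic, 21.2, 18.7 and 19.9 on 20 kPa Elastic, 22.2, 24.3 and 22.9 on 2 kPa Viscoelastic, and 28.6, 25.8 and 29.6 on 20 kPa Viscoelastic gels. All 6 viscoelastic samples lay above all 6 elastic samples. The log2 fold change was 0.49 ± 0.07 (SE) at 20 kPa (edgeR adjusted p = 0.00021), 0.25 ± 0.07 at 2 kPa (edgeR adjusted p = 0.024), and 0.37 ± 0.05 averaged over stiffness (edgeR adjusted p = 7.8e-05).

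Mrps21 showed the largest rise at 20 kPa. It read 21.5, 19.9 and 20.7 CPM on 20 kPa Elastic and 29.3, 29.1 and 29.8 on 20 kPa Viscoelastic gels, which did not overlap. Its log2 fold change there was 0.50 ± 0.09 (edgeR adjusted p = 0.00066). At 2 kPa it read 22.7, 22.3 and 18.3 CPM on elastic and 25.6, 21.6 and 26.8 on viscoelastic gels; these ranges overlapped, and the log2 fold change of 0.22 was not called (edgeR adjusted p = 0.084). Mrpl41, a mitochondria-specific protein of the large subunit whose promoter is shown above, went from 10.7, 8.85 and 9.98 to 13.2, 13.4 and 13.97 CPM between the gels of 20 kPa (log2 fold change 0.46, edgeR adjusted p = 0.00084). Mrpl36, one of the smallest ribosomal proteins and also conserved in bacteria, went from 18.6, 18.0 and 17.9 to 24.7, 22.5 and 24.1 CPM (0.39, edgeR adjusted p = 0.00043). Every viscoelastic sample of these 3 genes exceeded every elastic sample at 20 kPa.

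The other leading calls at 20 kPa were Mrpl52, described below, and Mrpl24, a protein beside the exit of the peptide tunnel. Mrpl24 read 35.9, 34.8 and 34.2 CPM on 20 kPa Elastic and 44.0, 45.0 and 44.9 CPM on 20 kPa Viscoelastic gels (log2 fold change 0.35 ± 0.06, edgeR adjusted p = 0.00081). The 20 kPa Elastic samples were also below those on 2 kPa Elastic gels, which read 37.3, 38.3 and 41.2 CPM. That difference was not called, and 2 of 77 members showed this arrangement, beside 2591 of 14542 tested genes. Exons of Rrnad1 lie opposite 26.3% of its exon bases. Of the other genes whose promoters are shown, Mrpl22, a protein of the peptide exit region, had a log2 fold change of 0.39 at 20 kPa (edgeR adjusted p = 0.0028), and Mrpl9, a conserved large-subunit protein shown for its motif letters, one of 0.18 (edgeR adjusted p = 0.022).

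The 7 members called higher at 2 kPa were Mrpl39, Mrpl33, Mrps18c, Mrpl32, Mrps15, Mrpl30 and Mrpl54, or 9.09% of members beside 8.77% of all tested genes. Of these 7, 6 were also among the 38 called at 20 kPa. The matching overlap over all tested genes was not counted. Mrpl39, a large-subunit protein related to tRNA synthetases, read 29.2, 30.0 and 29.7 CPM on 2 kPa Elastic and 35.05, 33.0 and 35.6 CPM on 2 kPa Viscoelastic gels. At 20 kPa it read 33.4, 29.9 and 30.6 on elastic and 37.4, 35.7 and 37.7 on viscoelastic gels. Viscoelastic samples were the higher ones at both stiffnesses without overlap, and the log2 fold changes were nearly equal, 0.22 ± 0.06 at 2 kPa (edgeR adjusted p = 0.015) and 0.24 ± 0.06 at 20 kPa (edgeR adjusted p = 0.0058). With the correction for exon length described below, neither was called (0.16, edgeR adjusted p = 0.07, and 0.13, edgeR adjusted p = 0.11). Mrps18c, the member of the S18 family that takes the place of bacterial S18, rose by a log2 fold change of 0.29 at 2 kPa (edgeR adjusted p = 0.018) and 0.36 at 20 kPa (edgeR adjusted p = 0.0027). The small-subunit gene Mrps15 (0.24) and the large-subunit genes Mrpl30 (0.20) and Mrpl54 (0.18) completed the calls at 2 kPa. The number of calls at 2 kPa leaned on single libraries, with 1, 3 or 4 calls without 2 kPa Elastic replicate 1, 2 or 3 and 4 or 3 without 2 kPa Viscoelastic replicate 1 or 3. With the length correction 2 of the 7, Mrpl32 and Mrpl33, were still called.

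Mrpl33 was the only member called at 2 kPa and not at 20 kPa. This large-subunit gene with a bacterial counterpart read 32.8, 36.3 and 37.7 CPM on 2 kPa Elastic, 41.5, 42.8 and 43.2 on 20 kPa Elastic, 40.3, 43.6 and 41.2 on 2 kPa Viscoelastic, and 41.1, 42.1 and 44.4 on 20 kPa Viscoelastic gels. The 2 kPa Elastic samples were low and the other 3 groups overlapped. Its log2 fold change with viscoelasticity was 0.23 ± 0.06 at 2 kPa (edgeR adjusted p = 0.017) and 0.00 ± 0.06 at 20 kPa, but the difference between these, -0.23, was not called (edgeR adjusted p = 0.12). The call at 2 kPa was lost without 2 kPa Elastic replicate 1 (0.17) or 2 kPa Viscoelastic replicate 2 (0.20).

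**Figure D3:**
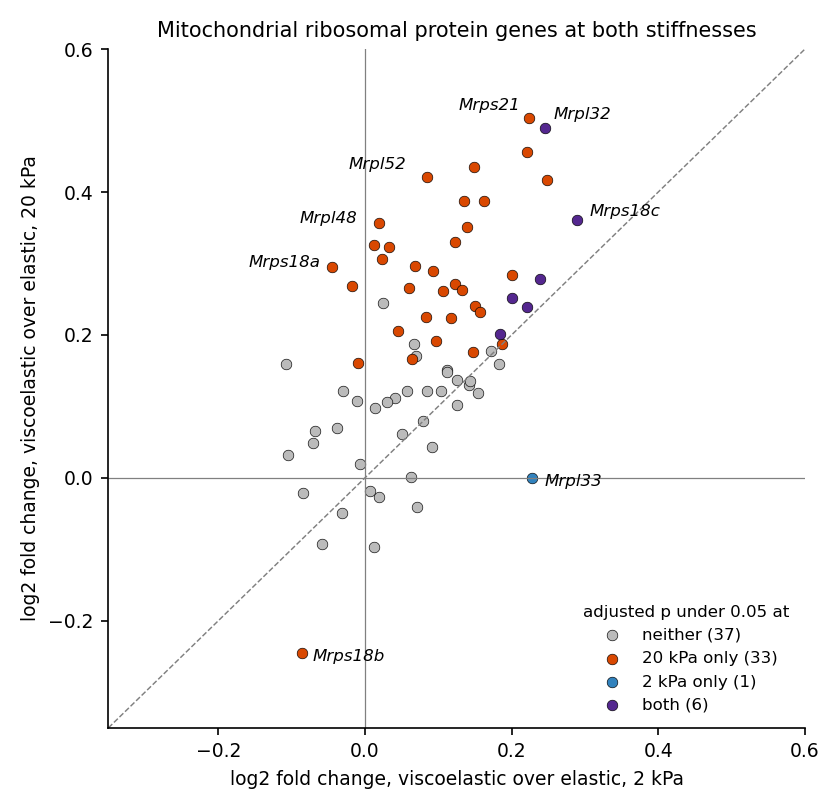
Each point is a gene, with the log2 fold change of viscoelastic over elastic gels at 2 kPa on the x axis and at 20 kPa on the y axis, coloured by where the adjusted p was under 0.05; the dashed line marks equal change. Most points lie above the line, 33 genes were called at 20 kPa only, 6 at both stiffnesses, and Mrpl33 at 2 kPa only.

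A single member, Mrps18b, was lower on viscoelastic gels. It encodes another S18 relative, a mitochondria-specific protein of the small subunit, on chr17:35910379-35916389 (minus strand). It read 11.6, 12.04 and 12.3 CPM on 20 kPa Elastic and 11.3, 9.63 and 9.46 on 20 kPa Viscoelastic gels, and 11.1, 10.4 and 11.4 CPM on 2 kPa Elastic and 11.0, 10.1 and 9.85 on 2 kPa Viscoelastic gels. At 20 kPa the elastic samples were the higher ones without overlap, whereas at 2 kPa the groups overlapped. The log2 fold change was -0.24 ± 0.08 at 20 kPa (edgeR adjusted p = 0.033) and -0.17 ± 0.06 averaged over stiffness (edgeR adjusted p = 0.035). The call was lost with total-count scaling (log2 fold change -0.21 at 20 kPa), and at 20 kPa also without either 20 kPa Viscoelastic replicate 2 (-0.21) or replicate 3 (-0.20), or without 20 kPa Elastic replicate 2 (-0.24) or replicate 3 (-0.22). Averaged over stiffness it was lost without any 1 of 8 of the 12 libraries (replicates 1 and 3 of 2 kPa Elastic, and replicates 2 and 3 of each other group), with values from -0.16 to -0.14. A non-coding gene, Gm16279, lies opposite 30.5% of its exon bases. The next lowest averaged value was that of Mrps27, an RNA-binding protein of the small subunit, with a log2 fold change of -0.08 that was not called (edgeR adjusted p = 0.23).

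The question of whether stiffness changed the response to viscoelasticity was tested directly as an interaction. It was called in 2 members, both positive, and in 0 negative, below the backgrounds of 4.45% and 3.12% of all genes, with a median of 0.09 beside 0.02. At an unadjusted p under 0.05 there were 14 of 77 members, beside 3267 of 14542 tested genes. DESeq2 called 1 member higher and 0 lower. The smaller number of calls at 2 kPa than at 20 kPa is therefore not matched by a called difference for most members. The 2 calls were Mrps18a and Mrpl52, and each was lost in most fits that left out 1 library. Such fits made 0 to 3 interaction calls among the members. Mrps18a, named for the small subunit but built into the large one, read 16.2, 15.1 and 14.6 CPM on 2 kPa Elastic, 14.8, 13.5 and 13.98 on 20 kPa Elastic, 14.04, 15.2 and 15.3 on 2 kPa Viscoelastic, and 17.0, 17.1 and 17.7 on 20 kPa Viscoelastic gels. Only the last group stood apart from the others. Its log2 fold change with viscoelasticity was -0.05 at 2 kPa and 0.29 at 20 kPa, a difference of 0.34 ± 0.09 (edgeR adjusted p = 0.042). Mrpl52, mitochondria-specific and in the large subunit (chr14:54426909-54429756, plus strand), read 20.0, 18.1 and 17.6, then 19.7, 17.9 and 17.9, then 18.7, 19.7 and 20.6, and finally 24.3, 24.3 and 25.8 CPM in the same order of groups. Here too the 20 kPa Viscoelastic samples alone were high, and the difference of the changes was 0.34 ± 0.10 (edgeR adjusted p = 0.05, just under the threshold before rounding). Mrpl48, a protein of the central protuberance, was close to the same pattern with a difference of 0.34 that was not called (edgeR adjusted p = 0.052), and was singled out after its values were seen; an annotated pseudogene, Mrpl48-ps, could share its reads. With the length correction the 2 calls were Mrpl48 (0.35, edgeR adjusted p = 0.048) and Mrps18a (0.32, edgeR adjusted p = 0.049), and Mrpl52 was not called (0.23, edgeR adjusted p = 0.13).

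**Figure D4:**
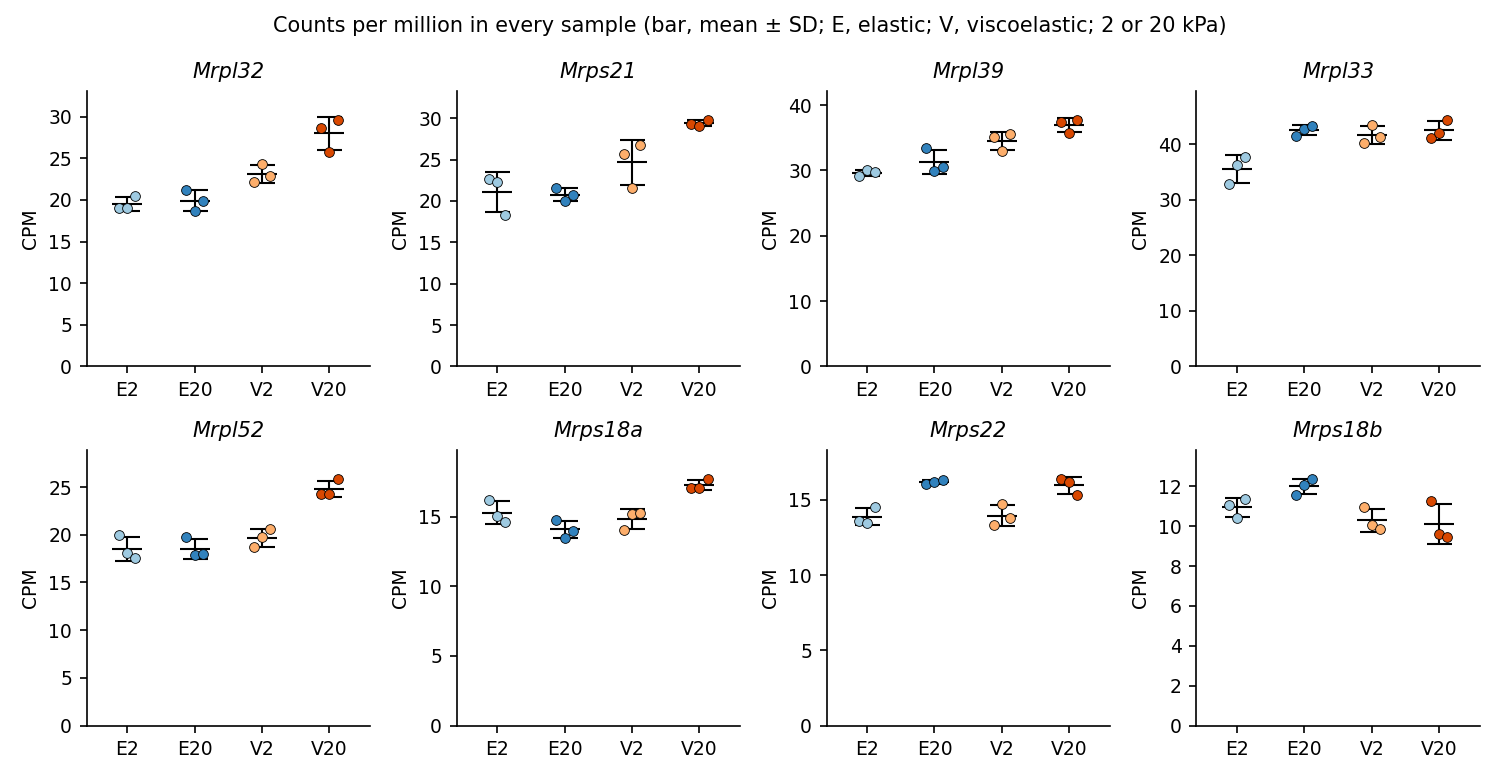
Points are CPM in each of the 3 samples of the 4 groups on the x axis (E, elastic; V, viscoelastic; 2 or 20 kPa) for 8 genes, each on a y axis from 0, with the mean and SD as bars. Mrpl32 and Mrpl39 are high in both viscoelastic groups, Mrpl52 and Mrps18a on 20 kPa Viscoelastic gels alone, Mrps22 in both 20 kPa groups, Mrpl33 is low on 2 kPa Elastic gels, and Mrps18b is lower on viscoelastic gels at 20 kPa.

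Between the stiffnesses on the same kind of gel, fewer members passed the threshold. On elastic gels 2 members were higher at 20 than at 2 kPa and 0 lower, against 6.81% and 7.14% of all genes, with a median log2 fold change of 0.07 (59 of 77 above 0). The count of 0 lower members came with 1 lower by GC-corrected edgeR and 0 by DESeq2. In either direction, 16 of 77 members reached an unadjusted p under 0.05, beside 4180 of 14542 tested genes. The 20 kPa samples exceeded the 2 kPa samples without overlap in 21 members, beside 17.8% of all genes. The calls were Mrpl33, with 0.26 ± 0.06 (edgeR adjusted p = 0.012), and Mrps22, a mitochondria-specific protein of the small subunit. Mrps22 read 13.6, 13.5 and 14.6 CPM on 2 kPa Elastic and 16.0, 16.2 and 16.3 on 20 kPa Elastic gels (0.22 ± 0.07, edgeR adjusted p = 0.034), and on viscoelastic gels 13.3, 14.7 and 13.8 at 2 kPa and 16.4, 16.2 and 15.3 at 20 kPa. It thus stood higher at 20 kPa without overlap on both kinds of gel, although the second difference of 0.20 was not called (edgeR adjusted p = 0.12). Both calls rest on single libraries: without 2 kPa Elastic replicate 1 neither was made (0.20 and 0.21), and Mrps22 was also lost without 2 kPa Elastic replicate 2 (0.20) and without 20 kPa Elastic replicate 2 (0.22) or 3 (0.22).

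On viscoelastic gels the shift with stiffness was wider. The median was 0.18, 75 of 77 members were above 0, and the 20 kPa samples exceeded the 2 kPa samples without overlap in 52 members, against 13.6% of all genes. Only 4 members were called higher and 0 lower, beside 1.58% and 0.695% of all genes, though DESeq2 called 12 higher and 0 lower. An unadjusted p under 0.05 was reached by 48 of 77 members, beside 2768 of 14542 tested genes. The 4 called genes were Mrpl42 (0.35 ± 0.07, edgeR adjusted p = 0.023), Mrpl52 (0.33 ± 0.07, edgeR adjusted p = 0.027), Mrps25 (0.31 ± 0.07, edgeR adjusted p = 0.035) and Mrpl51 (0.25 ± 0.06, edgeR adjusted p = 0.037). Mrpl42, Mrpl51 and Mrpl52 belong to the large and Mrps25 to the small subunit, and all 4 are mitochondria-specific. Mrpl42 read 31.1, 28.3 and 30.1 CPM at 2 kPa and 38.3, 34.5 and 41.0 at 20 kPa, and Mrps25 16.3, 18.0 and 17.3 against 21.9, 20.0 and 22.2, neither with overlap. Exons of Nr2c2 lie opposite 69.8% of the exon bases of Mrps25. No call (0) was left without 20 kPa Viscoelastic replicate 1 or replicate 3, or when the 6 viscoelastic samples were fitted by themselves, and 2 were left without 2 kPa Viscoelastic replicate 1 or 3 or 20 kPa Elastic replicate 2. With the correction for exon length described below, the median was 0.11, with 69 members above 0 and 27 at an unadjusted p under 0.05. Only Mrps25 and Mrpl42 were then called, beside 0.612% of all genes called higher.

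Calls at 20 kPa were made in both subunits, among proteins with and without a bacterial counterpart, and are to be read against the 17.4% of all genes called higher and 16.1% called lower. On viscoelastic gels, 28 of 50 large-subunit genes were called higher and 0 lower (median log2 fold change 0.19), and 9 of 26 small-subunit genes were called higher and 1 lower (0.14). With the length correction these counts were 14 higher and 1 lower in the large and 6 higher and 2 lower in the small subunit, beside 13.7% and 14.2% of all genes. Of 45 proteins with a bacterial counterpart 21 were called higher (0.16), and of 31 tested mitochondria-specific ones 16 (0.19). Among tested members whose exons overlap no other gene, 26 of 45 were called higher at 20 kPa. By place in the ribosome, 4 of 6 genes of the peptide exit region were called (range -0.10 to 0.39), 2 of 6 of the central protuberance (0.05 to 0.36), and 0 of the 3 stalk genes, Mrpl10, Mrpl11 and Mrpl12, which recruit translation factors (0.03 to 0.13). The decoding-centre protein Mrps12 was called (0.28, edgeR adjusted p = 0.011). Mrps36 was called too (0.43, edgeR adjusted p = 0.025), although it is now known as a subunit of the oxoglutarate dehydrogenase complex rather than of the ribosome. It has 3 annotated processed pseudogenes, which could share its reads.

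Summed exon length, the bases that lie in any annotated exon of a gene, was related to the size of these changes. Across all 14302 tested genes with a length, the averaged log2 fold change with viscoelasticity and the summed exon length had a Spearman rho of -0.34, so shorter genes tended to be higher on viscoelastic gels; across the 77 members rho was -0.28, a description across genes that share the same 12 libraries. Members were short, with a median of 2533 bases against 4334. Among genes under 1500 bases, 12 of 19 members were called higher with a median of 0.19, beside 414 of 1276 genes with a median of 0.17. Among genes of 1500 to 3000 bases, 12 of 27 members were called higher with a median of 0.12, beside 895 of 3084 genes with a median of 0.10. Among genes of 3000 bases or more, 17 of 31 members were called higher with a median of 0.12, beside 1493 of 9942 genes with a median of -0.03. The members' median thus stood near that of all genes in both shorter classes and further from it in the longest class.

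When each sample's trend with exon length was removed, fewer members were called higher. Averaged over stiffness 22 were higher and 5 lower, beside 17% and 17.9% of all genes, and the median fell from 0.13 to 0.06. At 20 kPa 20 were higher and 3 lower, beside 13.7% and 14.2%, with a median of 0.07. Of the 41 averaged calls 19 (46.3%) were kept, among them Mrpl32 (0.39, edgeR adjusted p = 7.5e-05), Mrps21, Mrpl41 and Mrpl39, whereas Mrpl36 (0.10) and Mrps18c (0.15) were not called. The lower calls were Mrps18b (-0.28), Mrpl28, Mrpl12, Mrps27 and Mrpl10. The correction left members with a rho of 0.48 between change and length, beside 0.02 over all genes, so that higher values then lay among the longer members. The cause of the relation to length was not tested.

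**Figure D5:**
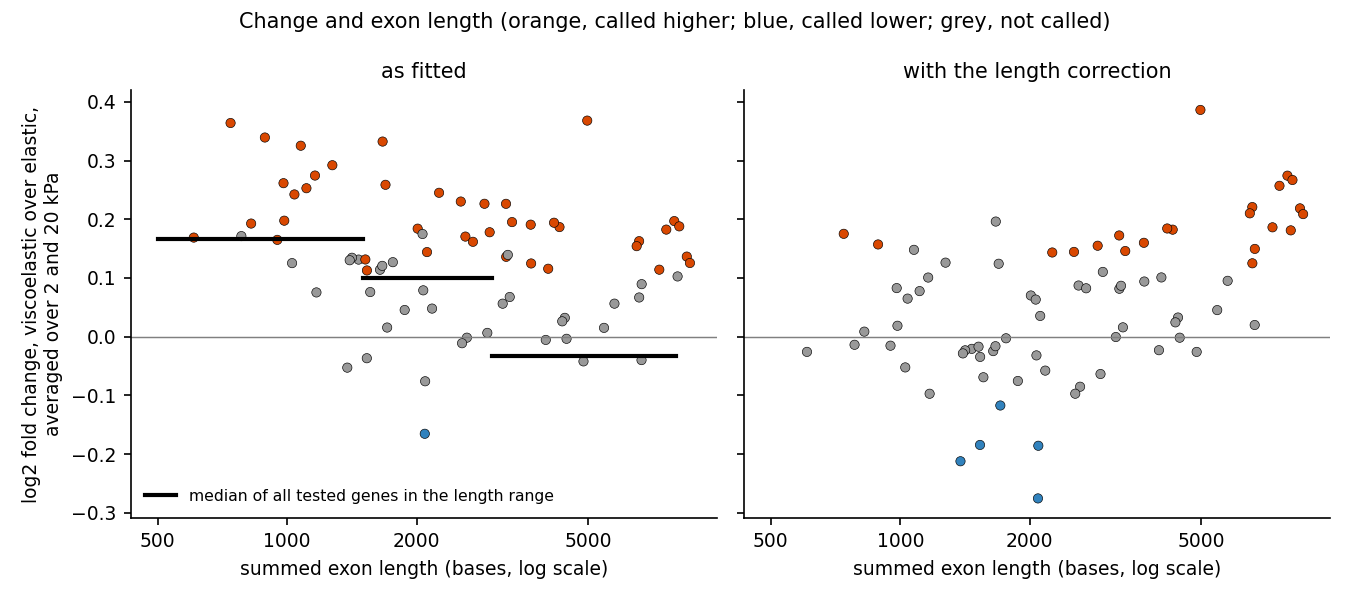
Each point is a gene, with the summed exon length in bases on a log x axis and the averaged log2 fold change of viscoelastic over elastic gels on the y axis, as fitted (left) and after each sample's length trend was removed (right); orange and blue mark genes called higher and lower. Black lines on the left are the medians of all tested genes under 1500 bases (0.17), from 1500 to 3000 (0.10) and above (-0.03).

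The other genes of mitochondrial translation were called in both directions. The numbers of this paragraph are for viscoelastic over elastic gels averaged over stiffness, where 19.6% of all genes were called higher and 20.4% lower. Of 5 ribosomal proteins with other names, 3 were higher and 1 lower. Aurkaip1, a small-subunit protein, had a log2 fold change of 0.25 (edgeR adjusted p = 0.00049), and Ptcd3, an RNA-binding protein of the same subunit, was the lower one (-0.11, edgeR adjusted p = 0.027). Of 14 translation factors and related genes 4 were higher and 1 lower, led by Mrrf, the factor that recycles ribosomes (0.24, edgeR adjusted p = 0.0032), and Gfm1, the elongation factor that moves the ribosome along (-0.13, edgeR adjusted p = 0.022). Of 26 factors for assembly and rRNA modification 5 were higher and 1 lower, led by the rRNA methyltransferase Nsun4 (0.26, edgeR adjusted p = 0.0011) and the helicase Dhx30 (-0.15, edgeR adjusted p = 0.0041). Of 22 genes of mitochondrial tRNA charging 1 was higher, Wars2 (0.17, edgeR adjusted p = 0.017), and 4 were lower, led by Mars2 (-0.27, edgeR adjusted p = 0.0013). These are tRNA synthetases and the amidotransferase subunits Qrsl1, Gatb and Gatc. Of 22 genes of mitochondrial transcription and RNA handling 7 were higher, led by Hsd17b10, a subunit of mitochondrial RNase P (0.26, edgeR adjusted p = 0.00017), and 4 lower, led by Lrpprc, which stabilises mitochondrial mRNAs (-0.27, edgeR adjusted p = 0.00056). Of 11 regulators 1 was higher, Myc (0.15, edgeR adjusted p = 0.026), and 2 lower, led by Pprc1, a relative of the coactivator PGC-1alpha (-0.26, edgeR adjusted p = 0.00038). The other lower regulator was Ppargc1a, which encodes PGC-1alpha itself, a coactivator of mitochondrial biogenesis. It averaged 8.18 ± 3.03 CPM on 2 kPa Elastic gels and 3.06 to 3.34 CPM in the other groups (SD, n = 3), and its averaged log2 fold change was -0.73 (edgeR adjusted p = 0.0016). The change was -1.43 at 2 kPa (edgeR adjusted p = 0.00038) and -0.03 at 20 kPa, and the difference of 1.40 was called (edgeR adjusted p = 0.011).

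The genes of the cytosolic ribosome and the nuclear genes of the respiratory chain are given for comparison. Of 79 cytosolic ribosomal protein genes, 68 were higher on viscoelastic gels at 2 kPa (median log2 fold change 0.32) and 72 at 20 kPa (0.39), with 0 lower at either. Of 83 tested nuclear genes of oxidative phosphorylation, 14 were higher at 2 kPa (0.10) and 58 at 20 kPa (0.27), also with 0 lower. All tested genes likewise had more higher calls at 20 kPa (17.4%) than at 2 kPa (8.77%). The members' medians of 0.08 and 0.18 were below those of both lists as fitted. With the length correction the members' medians were 0.03 and 0.07, those of the cytosolic ribosome 0.23 and 0.24, and those of the respiratory chain 0.00 and 0.11, so that the order of members and respiratory chain turned at 2 kPa. From 2 to 20 kPa on viscoelastic gels the medians were 0.23 for the cytosolic ribosome and 0.17 for the respiratory chain, beside 0.18 for the members. In that comparison 15 genes of each list and 4 members were called higher and 0 lower. These lists are described by counts, and no test compared them. Of the 13 protein-coding genes of the mitochondrial genome, whose messages the mitochondrial ribosome translates, COX2, ATP6, COX3, ND4L and ATP8 averaged at most 0.0242 CPM in every group, although every cell uses them, so the table does not measure them. ND3 was also low, with group means of 1.70 to 2.27 CPM. No tested gene of the mitochondrial genome was called in any comparison. The lowest adjusted p was that of ND4 at 20 kPa (log2 fold change 0.38, edgeR adjusted p = 0.11). The mitochondrial genes as counted made up 1.77 to 3.34% of counts, and the 4 groups' ranges overlapped (2.11 to 2.38%, 1.77 to 2.48%, 1.87 to 2.97% and 2.16 to 3.34% in the order of groups used above).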

How the data were processed

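Per the labels and the study's methods, the authors trimmed reads with Trimmomatic, aligned them with STAR to mm10 and used featureCounts with GENCODE gene models for counting; the deposited values are raw counts of 12 samples. The annotation release and the handling of strand and of reads that map to several places are not given in the sources used here. Genes were tested in R 4.3.3 with edgeR 4.0.16 (TMM, filterByExpr with a minimum count of 10, glmQLFit, glmQLFTest) with 1 coefficient per group, and p-values of 14542 genes were Benjamini-Hochberg adjusted, with calls under 0.05; DESeq2 1.42.0 was an alternative. Of 33246 genes, 10097 had no count. The biological coefficient of variation was 7.50%, and the median member had 848 counts per sample. Log2 CPM used a prior count of 2. The length correction subtracted a lowess trend of each sample's deviations on log2 exon length from the offsets. Exon lengths, overlaps and coordinates came from GENCODE M21 by symbol, and 2306 table genes did not match.

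Samples were grouped by their titles. Replicates differed by 11.2 to 55.7 times counting variance, so none was the same library sequenced again. Named genes were, per comparison and direction, up to 6 calls of lowest adjusted p, all calls where 5 or fewer were made, and the extremes of averaged change and level. Members, lists and motifs were chosen with earlier results of these data known. Scripts were tested on simulated data.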

Additional observations from a re-analysis of the deposited data

Results flagged for a closer look

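A difference between the 2 stiffnesses in the response to viscoelasticity was called in 2 members. For Mrps18a the log2 fold change of viscoelastic over elastic gels was higher at 20 kPa than at 2 kPa by 0.34 (SE 0.09, edgeR adjusted p = 0.042), and for Mrpl52 by 0.34 (SE 0.10, edgeR adjusted p = 0.05). Leaving out 1 library ended the call of Mrps18a for 9 and that of Mrpl52 for 10 of the 12 libraries, in all 4 groups. Other fits, given in the next part, gave 0 to 2 interaction calls.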

How the results depend on the processing

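Comparisons are given in the order viscoelastic over elastic at 2 kPa, at 20 kPa and averaged over stiffness, 20 over 2 kPa on elastic and on viscoelastic gels, and the interaction. As reported, 7, 38, 41, 2, 4 and 2 members were called higher and 0, 1, 1, 0, 0 and 0 lower. With total counts alone 15, 41, 49, 3, 6 and 0 were higher and 0 lower in each, and the first 3 medians were 0.1229, 0.2117 and 0.1715. With every gene with a count tested, 5, 30, 33, 1, 4 and 0 were higher and 0 lower in each. At an adjusted p under 0.01, 0, 25, 28, 0, 0 and 0 were higher and 0 lower. DESeq2's Wald test called 8, 35, 35, 4, 12 and 1 higher, edgeR with DESeq2 size factors 8, 35, 38, 3, 4 and 0, and GC correction 8, 38, 38, 5, 7 and 1. At 20 kPa each of these fits called 1 member lower, and GC correction also called 1 lower on elastic gels. The length correction gave 4, 20, 22, 4, 2 and 2 higher and 1, 3, 5, 0, 0 and 0 lower, and its medians were 0.03396, 0.07208, 0.06481, 0.062, 0.1099 and 0.04731. Fits of only the samples compared gave 5 and 39 with viscoelasticity, and 3 and 0 with stiffness.

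Deviations of same-numbered replicates correlated at -0.16 to 0.05 in 3 comparisons and at 0.18, 0.31 and 0.05 between the viscoelastic groups, where 4 of 6 samples correlated best with their own number. Since not every pair passed 0.1, the numbers were not taken to pair the samples. With the replicate block 7, 36, 38, 1, 2 and 0 were higher, and among the named results Mrps22 (elastic gels), Mrps25 and Mrpl51 (viscoelastic gels) and both interaction calls, Mrps18a (0.34, edgeR adjusted p = 0.073) and Mrpl52 (0.33, edgeR adjusted p = 0.078), were not called. With the replicate block, length and GC correction 3, 17, 22, 2, 0 and 0 were higher and 0, 3, 5, 1, 0 and 0 lower, and the medians that moved were 0.02676, 0.0754, 0.05507, 0.1094 (viscoelastic gels) and 0.04525 (interaction).

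Leaving out 1 library at a time gave 1 to 9, 26 to 38, 32 to 41, 0 to 3, 0 to 6 and 0 to 3 higher calls and 0 to 1 lower calls at 20 kPa and averaged. The medians ranged from 0.06799 to 0.1024, 0.1601 to 0.2141, 0.1261 to 0.1517, 0.05691 to 0.08598, 0.1542 to 0.1916 and 0.06397 to 0.117. Of 599 alternatives for 29 results of 18 named genes, 470 stayed on the same side of the threshold, 127 lost a call, 2 gained one (Mrps27 lower averaged, not called as reported, with length correction) and 0 changed direction. The cause of these shifts was not tested. The small calls rest on 3 samples a group.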
